A study of Mus musculus with 18 samples.

Results

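Transcript levels of PTCP53 304 cells, a mouse Sonic hedgehog (SHH) medulloblastoma line, were set beside those of mouse brain, labelled whole brain. Both were given vehicle and no inhibitor. The comparison used 6 of the 18 RNA sequencing libraries of a study of the OLIG2 inhibitor CT-179, chosen by their labels. The 3 cell libraries carried the genotype Ptch1+/-; Trp53-/- and were collected after 24 h of vehicle (culture day 1). The 3 brain libraries carried the genotype Ptch1+/-; IR, where the labels leave IR unexplained, and came from mice dosed with vehicle for 12 days from postnatal day 3 and collected at postnatal day 15. A further 3 libraries of the same cells after 144 h of vehicle (culture day 6) are given beside these where culture time matters. Cells and brains were both heterozygous for Ptch1 by their labels, and the cells are a single line. Nothing in the labels says that replicates came from different cultures or animals, so the spread between the cell libraries may be technical. The brain libraries did not all come from 1 animal, since Y-linked transcripts were present in replicate 3 and near 0 in replicates 1 and 2.

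SHH medulloblastoma is a tumour of the cerebellum that is held to arise from granule neuron precursors, the dividing cells that form the cerebellar granule layer. In these precursors the ligand SHH, made by Purkinje cells, binds the receptor Patched and so releases Smoothened, which activates the GLI transcription factors and cell division. OLIG2 is a transcription factor of the oligodendrocyte lineage and of neural progenitors, and it also marks stem-like cells of this tumour. A brain of this age holds neurons that are forming synapses and oligodendrocytes that are making myelin.

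The cell table and the brain table were normalized separately by the authors, and tissue, culture, genotype and batch differ together between them, so their parts in any difference cannot be told apart. A total of 14912 protein-coding genes had a row in both tables, which was 68.7% of the 21709 protein-coding genes of the cell table. Their FPKM values (fragments per kilobase of gene, scaled to the depth of the library) were rescaled to a common sum of 1000000 in each library. Of these genes, 13890 reached at least 1 rescaled FPKM in at least 3 of the 6 libraries. A gene was called higher in a group when all 3 of its libraries lay above all 3 of the other group and the means of log2(rescaled FPKM + 1) differed by at least 2, which is 4-fold. No p-value was computed across the tables. A log2 difference is the mean of the cells minus that of the brains on this scale, with its standard error over 3 and 3 libraries, and it understates the change of low genes.

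From the smallest steps of the FPKM values, the implied depth ranged over 2.84e+07 to 4.25e+07 reads in the cells and over 1.71e+07 to 4.99e+07 reads in the brains, where replicate 2 was the shallowest. Libraries correlated at 0.998 to 0.999 within the cells, at 0.99 to 0.991 within the brains, and at 0.575 to 0.586 between the groups (Pearson's r on the log2 scale, across genes, which are not independent replicates). Brain replicate 2 stood apart in Lars2, a mitochondrial leucyl-tRNA synthetase gene, which held 4.66% of its summed rescaled FPKM, against 0.0229% and 0.0238% in replicates 1 and 3. Of 27 genes that ranged over at least 2 log2 units among the brains, 18 were farthest from the median in replicate 2. In bulk RNA, fewer cells of a type and less RNA per cell cannot be told apart.

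In all, 1184 genes were called higher in the cells (8.52% of the genes tested) and 2492 higher in the brain (17.9%), and 10214 were not called. Counts of calls in the gene lists below are to be read beside these shares. Libraries of the groups did not overlap for 12630 genes (90.9%), so lack of overlap alone marks out few genes here. The median log2 difference over all genes was -0.05, and the quartiles were -1.45 and 0.98. Of the genes higher in the brain, 1515 had a mean under 1 rescaled FPKM in the cells, and 315 were listed at 0 in all 3 cell libraries. Of the genes higher in the cells, 44 had a mean under 1 rescaled FPKM in the brain. This number is not comparable with the 1515, because the brain table held fewer genes than the cell table, and a gene without a row in the brain table did not enter the comparison. Without brain replicate 2 the counts were 1201 and 2503.

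**Figure D1:**
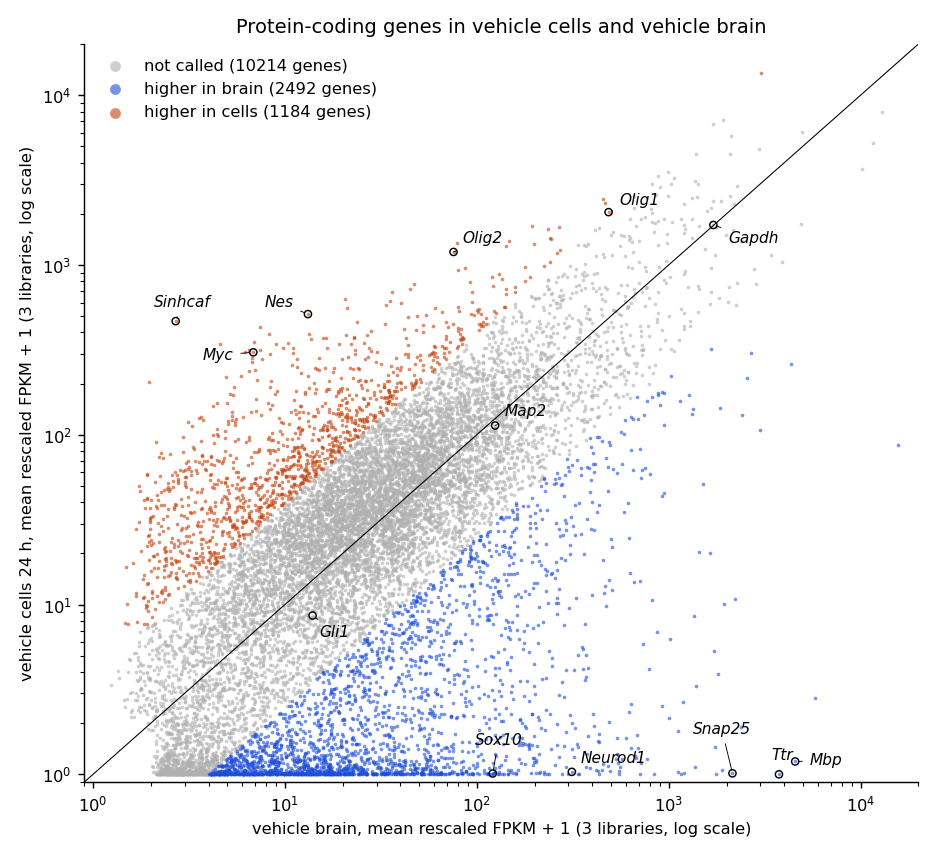
Mean rescaled FPKM + 1 of 13890 protein-coding genes in 3 vehicle brain libraries and 3 vehicle cell libraries at 24 h (both axes log scale), coloured by call. The genes called higher in the brain reach down to the lower limit of the cell axis, where the cells are listed at or near 0.

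The largest difference in favour of the cells was in Sinhcaf, which encodes a subunit of the SIN3 histone deacetylase complex. Sinhcaf was at 448, 444 and 504 rescaled FPKM in the 3 cell libraries and at 1.47, 1.77 and 1.84 in the brains, a log2 difference of 7.43 ± 0.09 (SE). The groups were far apart, and every cell library was high. Papln, which encodes the extracellular matrix protein papilin, was at 206, 207 and 197 rescaled FPKM in the cells and at 0.976, 1.15 and 0.743 in the brains (log2 difference 6.71 ± 0.09). The next in order of log2 difference were Lratd2 (6.26), the replication factor gene Pclaf (5.93), the thymidine kinase gene Tk1 (5.77), Resf1 (5.66), the hexosamine pathway gene Gfpt2 (5.63), Sox3 (5.60), Top2a (5.49), Myc (5.49), the fibrillar collagen gene Col11a1 (5.47) and the mitotic kinesin gene Kif11 (5.44).

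The largest differences in favour of the brain were in genes of myelin, choroid plexus and neurons. Mbp, which encodes myelin basic protein, was at 4763, 4359 and 4545 rescaled FPKM in the brains and at 0.195, 0.143 and 0.233 in the cells (log2 difference -11.90 ± 0.05). Ttr, which encodes the transport protein transthyretin of the choroid plexus, was at 4191, 3980 and 3079 rescaled FPKM in the brains and listed at 0 in every cell library. The cells were thus at or next to 0 in genes that were abundant in the brain. The 12 largest also included Snap25, Eef1a2, Pvalb, Sncb, Pcp4, Mag, Stmn2 and Mobp, and Pvalb and Stmn2 were also listed at 0 in all 3 cell libraries.

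Cell cycle genes were higher in the line. All 26 genes of the G2/M and mitosis list were higher in the cells, with a median log2 difference of 4.57 against -0.05 over all genes. Of the 26 genes of the G1/S and DNA replication list, 24 were higher in the cells (median 4.06), and the other two, Ccne1 and E2f1, had log2 differences of 1.76 ± 0.09 and 1.10 ± 0.12. No gene of either list was higher in the brain.

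Many G2/M genes carry in their promoters a CCAAT box, which is bound by NF-Y, and a CHR element (TTTGAA), which is bound by the MuvB complexes. The promoters of 4 list members with large differences are shown so that these motifs can be seen beside the levels. They are RefSeq sequences of the build GRCm38.p6, from 250 bases before to 50 bases after the start of the gene, read along the gene's strand. Capitals mark CCAAT or its reverse complement ATTGG, and TTTGAA or its reverse complement TTCAAA, and no match to one motif overlaps a match to the other. Top2a lies at chr11:99024140-99024439 (minus strand), Kif11 at chr19:37376132-37376431 (plus strand), Plk1 at chr7:122159185-122159484 (plus strand) and Ccnb1 at chr13:100786437-100786736 (minus strand).
Top2a: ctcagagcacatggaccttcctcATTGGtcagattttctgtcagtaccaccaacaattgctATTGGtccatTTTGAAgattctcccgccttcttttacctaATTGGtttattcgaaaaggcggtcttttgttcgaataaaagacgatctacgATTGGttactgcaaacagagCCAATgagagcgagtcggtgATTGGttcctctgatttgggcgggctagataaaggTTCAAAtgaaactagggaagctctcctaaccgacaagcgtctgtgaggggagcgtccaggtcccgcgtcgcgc
Kif11: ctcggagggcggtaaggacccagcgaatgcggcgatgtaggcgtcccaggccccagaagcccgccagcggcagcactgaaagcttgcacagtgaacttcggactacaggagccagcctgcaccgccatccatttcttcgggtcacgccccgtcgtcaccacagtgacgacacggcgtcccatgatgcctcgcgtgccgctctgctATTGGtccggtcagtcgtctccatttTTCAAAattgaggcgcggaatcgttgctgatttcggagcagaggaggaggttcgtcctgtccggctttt
Plk1: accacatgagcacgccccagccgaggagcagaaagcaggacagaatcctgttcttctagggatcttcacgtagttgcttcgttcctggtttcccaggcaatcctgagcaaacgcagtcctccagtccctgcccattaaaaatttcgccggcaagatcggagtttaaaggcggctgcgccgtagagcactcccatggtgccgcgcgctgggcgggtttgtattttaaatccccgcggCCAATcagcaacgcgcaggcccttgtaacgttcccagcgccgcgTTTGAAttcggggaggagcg
Ccnb1: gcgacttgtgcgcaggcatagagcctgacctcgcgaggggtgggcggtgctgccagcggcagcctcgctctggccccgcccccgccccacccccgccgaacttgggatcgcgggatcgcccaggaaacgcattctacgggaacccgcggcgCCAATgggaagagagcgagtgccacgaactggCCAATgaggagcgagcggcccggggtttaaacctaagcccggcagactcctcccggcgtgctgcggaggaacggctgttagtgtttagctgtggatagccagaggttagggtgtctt
The Top2a promoter held 6 matches to the CCAAT motif and 2 to TTTGAA, those of Kif11 and Plk1 held 1 of each, and that of Ccnb1 held 2 CCAAT matches and no exact TTTGAA. Of the 26 list genes, 22 had a promoter in the table, of which 20 (90.9%) held CCAAT, 16 (72.7%) held TTTGAA and 16 held both. Among the promoters of 27025 mouse genes, 37.9% held CCAAT, 18.1% held TTTGAA and 7.12% held both. In the G1/S list 19 genes had a promoter, with CCAAT in 13 (68.4%) and TTTGAA in 2 (10.5%). Of the 8158 promoters of genes that passed the filter and were not called, 3188 (39.1%) held CCAAT and 900 held TTTGAA. The TTTGAA share of the G1/S list was thus close to that of genes not called. The promoters of all mouse genes had a lower median count of CG pairs than those of genes not called or of either list. They are therefore a less closely matched background. Over all genes higher in the cells, 945 had a promoter and 10.9% of these held both motifs, against 3.48% of 1870 promoters of genes higher in the brain and 4.45% of 8158 promoters of genes that were not called. A match describes letters in a window of 300 bases and is not a measured binding site.

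Mki67, the gene of the proliferation marker Ki-67, was at 197, 209 and 214 rescaled FPKM in the cells and at 3.45, 9.33 and 9.59 in the brains (log2 difference 4.72 ± 0.41). Top2a, which encodes the topoisomerase that untangles DNA for division, was at 299, 309.5 and 338 rescaled FPKM in the cells and at 3.2, 8.56 and 7.59 in the brains (5.49 ± 0.38). Every cell library lay far above every brain library for both genes. The mitotic kinase gene Plk1 averaged 281 ± 9.14 rescaled FPKM in the cells (SD, n = 3) and 5.74 ± 2.1 in the brains (log2 difference 5.44 ± 0.29), and the cyclin gene Ccnb1 averaged 268 ± 5.94 and 5.71 ± 2.22 (5.38 ± 0.29). Kif11, which pushes the spindle poles apart, averaged 89.9 ± 3.61 and 1.14 ± 0.572 rescaled FPKM (5.44 ± 0.22). Among replication genes, Pcna, which encodes the DNA polymerase clamp, averaged 768 ± 35.1 rescaled FPKM in the cells and 46.1 ± 3.87 in the brains (4.03 ± 0.08). The replicative helicase gene Mcm3 averaged 389 ± 8 and 12.3 ± 5.38 (4.96 ± 0.38), and the ribonucleotide reductase gene Rrm2 averaged 344 ± 20.5 and 9.34 ± 2.54 (5.09 ± 0.22).

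Trp53, which the genotype of the line names and which encodes the tumour suppressor p53, was at 47.6, 49 and 47.7 rescaled FPKM in the cells and at 16.2, 18.7 and 18.7 in the brains (log2 difference 1.38 ± 0.07, not called). The labels do not say which part of Trp53 is deleted, so a level summed over the gene does not check the genotype. Cdkn1a, which encodes the cell cycle inhibitor p21 and is a classic p53 target, was at 2.93, 3.39 and 3.52 rescaled FPKM in the cells and at 49.3, 50.1 and 47.6 in the brains (-3.55 ± 0.07). Cdkn1a was higher in the brain by 14.9-fold, with no overlap.

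The 16 genes of the p53 target and INK4/ARF list that passed the filter went in both directions, with a median log2 difference of -0.12. Phlda3, Cdkn1a, Perp and the pro-apoptotic gene Bbc3 were higher in the brain. Phlda3, which encodes an inhibitor of AKT signalling, averaged 4.44 ± 0.886 rescaled FPKM in the cells and 173 ± 14.3 in the brains. Gtse1 and the INK4 inhibitor gene Cdkn2c were higher in the cells, at 65.8 ± 2.22 against 2.71 ± 1.46 and at 116 ± 0.942 against 8.8 ± 1.6 rescaled FPKM. The p53 targets Mdm2 and Bax were not called, with log2 differences of 0.46 ± 0.07 and 0.06 ± 0.10. With the cells at 144 h the list median was 0.39. Cdkn2a, which encodes the tumour suppressors INK4A and ARF, had a row in the cell table alone. Its FPKM as deposited was 86.2, 84.3 and 75.7 in the 3 cell libraries.

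The cells carried transcripts of early oligodendrocyte lineage and neural progenitor genes and had low levels of most markers of neurons and myelinating oligodendrocytes. Of 15 neural stem and progenitor markers, 9 were higher in the cells and 0 in the brain (median log2 difference 2.43). Of 14 oligodendrocyte precursor markers, 4 were higher in the cells and 3 in the brain (median 0.86). The first count was 2 with the median of ratios as scaling or with the CT-179 brain libraries, since Olig1 (2.07) and C1ql1 (2.01) lay close to the limit of 2. The lists of neurons, glia, vessels, blood and other cells, described next, had medians below 0.

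**Figure D2:**
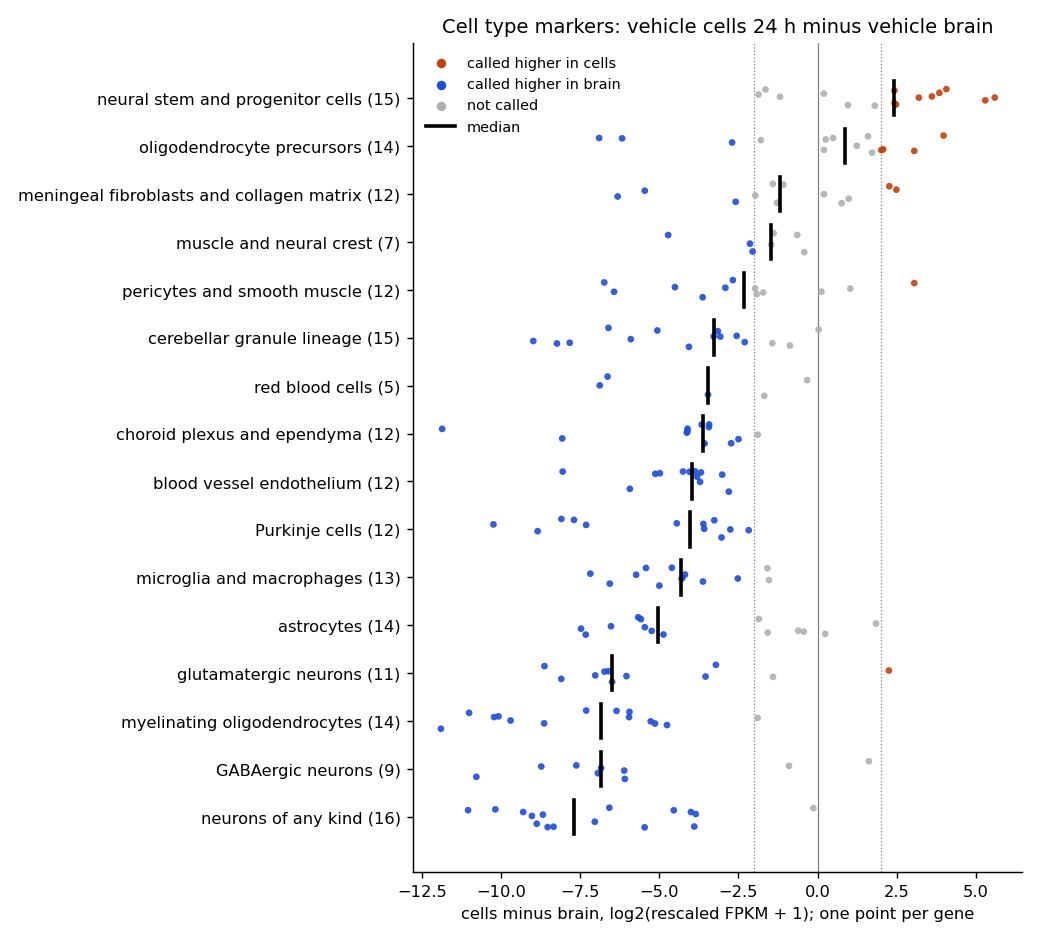
Log2 difference of each marker gene between vehicle cells at 24 h and vehicle brain, by cell type list, with the list medians and the limits for a call. Medians lie above 0 for neural stem cells (2.43) and oligodendrocyte precursors (0.86) and far below 0 for neurons (-7.69) and myelinating oligodendrocytes (-6.83).

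Olig2, the target of the inhibitor in the wider study, was at 1226, 1201 and 1145 rescaled FPKM in the cells and at 82.8, 70.6 and 70.3 in the brains. All 3 cell libraries lay far above the brains (16-fold, log2 difference 3.98 ± 0.08). Olig1, a related factor of the same lineage, was at 2165, 2051 and 1921 rescaled FPKM in the cells and at 494, 474 and 486 in the brains (2.07 ± 0.05). The NG2 proteoglycan gene Cspg4, at 94.7 ± 4.17 against 10.7 ± 2.36 rescaled FPKM, and C1ql1, at 446 ± 33.6 against 111 ± 17, were the other precursor markers higher in the cells.

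Sox10, the factor that drives oligodendrocyte maturation and myelin genes, went the other way. It was at 0.035, 0 and 0 rescaled FPKM in the cells and at 114, 124 and 123 in the brains, with no overlap. Gpr17, a receptor gene of precursors that are about to differentiate, averaged 0.711 ± 0.0433 and 123 ± 9.76 rescaled FPKM (log2 difference -6.18 ± 0.07), and the matrix gene Tnr was also higher in the brain (-2.70 ± 0.08). Pdgfra, which encodes the growth factor receptor that defines precursors, was at 20.8, 21.2 and 19.1 rescaled FPKM in the cells and at 16.2, 21.2 and 15.8 in the brains, so the groups overlapped. Nkx2-2 averaged 49.8 ± 4.36 and 20.5 ± 2.21 rescaled FPKM (1.24 ± 0.11) and was not called.

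Of 14 markers of myelinating oligodendrocytes, 13 were higher in the brain and 0 in the cells (median log2 difference -6.83). Mag, which encodes a glycoprotein of the myelin sheath, was at 0.0352, 0 and 0 rescaled FPKM in the cells and at 1156, 1220 and 1240 in the brains. Mog, another myelin protein gene, was listed at 0 in every cell library and was at 927, 781 and 789.7 rescaled FPKM in the brains. The marker that was not called was Gjc3, a connexin gene, at 18.9 ± 1.4 and 73.7 ± 12.9 rescaled FPKM.

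Among progenitor genes, Nes, which encodes the intermediate filament nestin, was at 512, 490.3 and 535 rescaled FPKM in the cells and at 9.52, 13.1 and 13.9 in the brains (42.1-fold, log2 difference 5.30 ± 0.16). The filament gene Vim was at 1299, 1281 and 1297 rescaled FPKM against 127, 147 and 146 (3.20 ± 0.07). Fabp7, a fatty acid binding protein gene of radial glia, was at 2319, 2396 and 2612 against 446, 397 and 521 (2.43 ± 0.12). The groups did not overlap for any of these 3. The SOXB1 factor genes Sox1, Sox2 and Sox3 were all higher in the cells, with log2 differences of 3.61, 2.48 and 5.60, as were the adhesion receptor gene Cd44 (3.85) and the Notch target Hes1 (2.43). Prom1, which encodes the stem cell marker CD133, averaged 9.21 ± 0.752 rescaled FPKM in the cells and 22.2 ± 0.568 in the brains and was not called.

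Of 14 astrocyte markers, 8 were higher in the brain and 0 in the cells (median log2 difference -5.05). Gfap, the astrocyte filament gene, was at 1.11, 1.33 and 1.4 rescaled FPKM in the cells and at 392, 402 and 416 in the brains. Aqp4, which encodes the water channel of astrocyte endfeet, averaged 1.44 ± 0.19 and 124 ± 21.6 rescaled FPKM (-5.67 ± 0.16). The other 6 were not called. Among them Aldoc, Slc1a3, Slc4a4 and Sox9, which progenitors and radial glia can also make, had log2 differences of -0.61, -0.44, 0.24 and 1.85.

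Of 16 general neuronal markers, 15 were higher in the brain (median log2 difference -7.69). Snap25, which encodes a protein of the vesicle fusion machinery, was at 0, 0.0418 and 0 rescaled FPKM in the cells and at 2525, 1991 and 1923 in the brains. Tubb3, a neuronal tubulin gene, was at 0.885, 1.3 and 1.28 rescaled FPKM against 1058, 985 and 974. The exception was Map2, the gene of a dendritic microtubule protein, at 110.1, 113 and 114 rescaled FPKM in the cells and 122, 134 and 114 in the brains (-0.13 ± 0.07, not called).

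Of the 11 glutamatergic markers that passed, 9 were higher in the brain and 1 in the cells, and of the 9 GABAergic markers 7 were higher in the brain and 0 in the cells. The call in the cells was lost with FPKM as deposited. The vesicular glutamate transporter gene Slc17a7 was at 0.13, 0.0312 and 0.282 rescaled FPKM in the cells and at 466, 466 and 423 in the brains. Gad2 and Npy, which encode a GABA synthesis enzyme and a peptide of interneurons, were listed at 0 in all 3 cell libraries. Of 20 genes of the synaptic vesicle and postsynaptic density, 16 were higher in the brain (median log2 difference -3.56), and of 16 voltage-gated channel genes 15 were (-4.84). The complexin gene Cplx1 averaged 1.67 ± 0.0686 rescaled FPKM in the cells and 1184 ± 56.2 in the brains, while Homer1, a postsynaptic scaffold gene, averaged 18.6 ± 1.18 and 7.89 ± 0.676 and was not called.

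Markers of vessels and immune cells were near 0 in the cells. All 12 endothelial markers and 11 of 13 microglial markers were higher in the brain (median log2 differences -3.96 and -4.30). The tight junction gene Cldn5 was at 0, 0 and 0.298 rescaled FPKM in the cells and at 254, 280.3 and 338 in the brains. The complement genes C1qa, C1qb and C1qc were listed at 0 in every cell library, and C1qa was at 133, 140.3 and 159.6 rescaled FPKM in the brains. Cd68, a lysosomal gene that many cells use, was among the microglial markers not called, at 3.83 ± 0.127 rescaled FPKM in the cells and 13 ± 0.174 in the brains. Of 12 choroid plexus and ependyma markers, 11 were higher in the brain. The haemoglobin genes Hba-a1 and Hbb-bs were listed at 0 in the cells, and in the brains they were at 68.3, 235 and 99 and at 68.7, 209 and 65.9 rescaled FPKM, highest in replicate 2. The 12 endothelial markers summed to 5.76 to 6.74 rescaled FPKM in the cells and to 537.7 to 615 in the brains.

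Pericyte, smooth muscle and fibroblast genes were less uniform. Of 12 pericyte and smooth muscle markers, 6 were higher in the brain, and Cspg4, which the precursor list shares, was higher in the cells. The defining pericyte gene Rgs5 was at 0.107, 0.0822 and 0.0619 rescaled FPKM in the cells and at 124, 106 and 116 in the brains. Of 12 meningeal fibroblast and collagen genes, Igf2, Col1a2 and Dcn were higher in the brain, and Col5a1 and Fbn1 were higher in the cells, at 30.7 ± 1.23 against 4.63 ± 0.249 and 18.9 ± 0.851 against 3.14 ± 0.48 rescaled FPKM. Col3a1, another fibrillar collagen gene, averaged 42.7 ± 2.07 and 21.1 ± 0.177 and was not called.

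**Figure D3:**
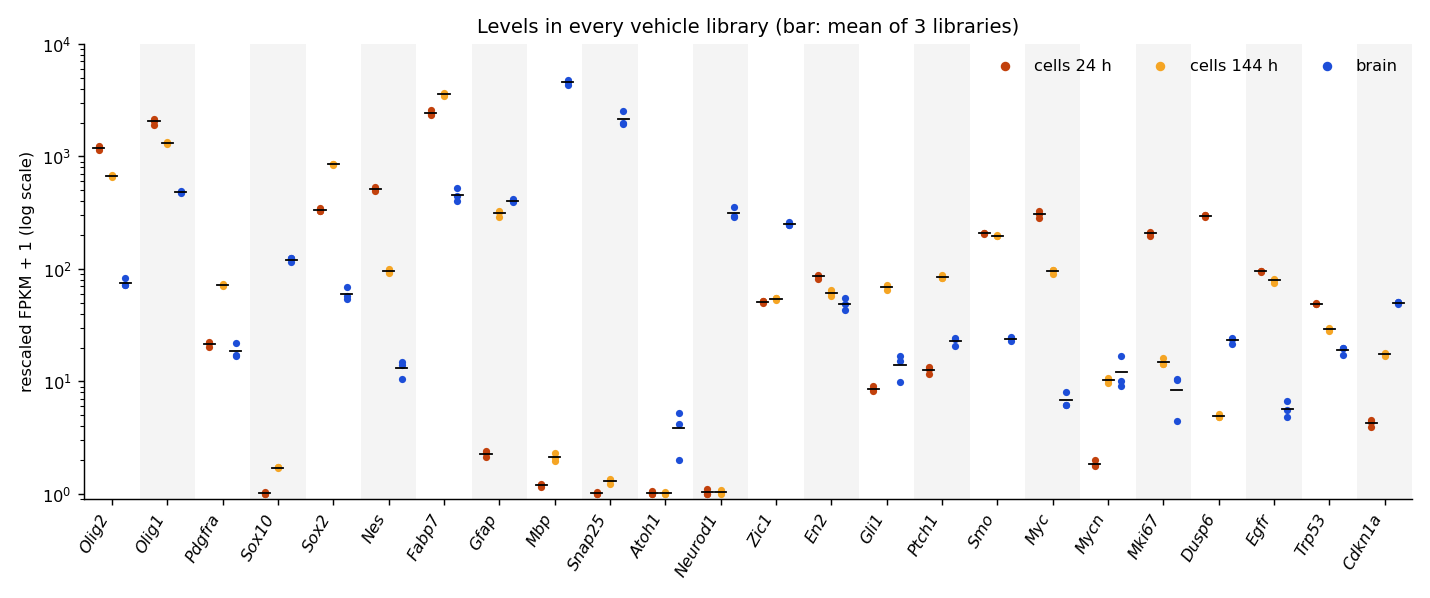
Rescaled FPKM + 1 (log scale) of named genes in each of the 3 vehicle libraries of cells at 24 h, cells at 144 h and brain. Olig2 and Nes lie above the brain in the cells, Sox10 and Mbp lie near the lower limit in the cells, and Gfap lies near the brain at 144 h and far below it at 24 h.

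The line is labelled an SHH medulloblastoma, and the defining markers of the granule lineage were at or next to 0 in it. Of the 15 granule lineage markers that passed the filter, 12 were higher in the brain and 0 in the cells (median log2 difference -3.28). Atoh1, the factor that specifies granule precursors, fell below the filter, at 0, 0 and 0.0664 rescaled FPKM in the cells and at 0.988, 4.28 and 3.2 in the brains. Barhl1, a homeobox gene of granule cells, was at 0, 0.0239 and 0.036 rescaled FPKM in the cells and at 26.1, 37.6 and 36.8 in the brains. Neurod1, which drives granule neuron differentiation, was at 0, 0 and 0.103 against 355, 286 and 294. The cells were below the brains for each of the 3. The GABA receptor gene Gabra6 of mature granule neurons was listed at 0 in the cells and was at 294, 192 and 206 rescaled FPKM in the brains.

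Zic1 and Zic2, zinc finger genes of granule precursors and the dorsal neural tube, were present in the cells at a lower level. Zic1 was at 50.5, 50.7 and 49 rescaled FPKM in the cells and at 263, 242 and 247 in the brains (log2 difference -2.30 ± 0.04), and Zic2 averaged 35.3 ± 2.33 and 212 ± 9.13 (-2.56 ± 0.06). Meis1 overlapped between the groups, at 18, 17.6 and 16.6 against 15.4, 16.8 and 18.9 rescaled FPKM. Pax6 averaged 14.2 ± 0.272 and 27.2 ± 6.58 (-0.87 ± 0.19) and was not called. All 12 Purkinje cell markers were higher in the brain, and the 12 summed to 26.9 to 29.5 rescaled FPKM in the cells and 2818 to 3672 in the brains.

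Genes of the SHH pathway differed in direction, also among genes of like role. Shh itself, the ligand gene, was at 0.102, 0 and 0.0989 rescaled FPKM in the cells and at 6.16, 4.11 and 5.37 in the brains and was higher in the brain. Smo, which encodes the signal transducer Smoothened, was at 208, 203 and 207 rescaled FPKM in the cells and at 23.3, 23.6 and 22.1 in the brains (8.98-fold, log2 difference 3.11 ± 0.03). The co-receptor genes Gas1 and Cdon were also higher in the cells (3.21 ± 0.07 and 2.33 ± 0.05), and Boc was not called (0.43 ± 0.06).

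The direct pathway targets Gli1, Ptch1 and Hhip were not called at 24 h. Gli1, the transcription factor gene that reports pathway activity, was at 7.26, 8.08 and 7.51 rescaled FPKM in the cells and at 8.81, 15.8 and 14.1 in the brains (log2 difference -0.66 ± 0.24). Ptch1, both receptor and target, was at 10.7, 12.4 and 12 rescaled FPKM against 22.7, 23.5 and 19.6 (-0.85 ± 0.10). All 3 cell libraries lay below all 3 brain libraries for both genes, by less than the limit for a call. Hhip, which encodes a decoy receptor, averaged 1.01 ± 0.124 and 5.28 ± 0.452 rescaled FPKM (-1.64 ± 0.08).

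Of the GLI family, Gli3, which mostly acts as a repressor, was higher in the cells, at 32.4 ± 0.345 against 1.99 ± 0.534 rescaled FPKM, and Gli2 averaged 8.74 ± 0.367 and 3.4 ± 1.38 (log2 difference 1.20 ± 0.28, not called). The intracellular regulator gene Kif7 was higher in the cells (2.52 ± 0.07), and Sufu was not called (1.43 ± 0.09). The cell cycle genes of the list, Ccnd1, Ccnd2 and Foxm1, were higher in the cells (3.37, 4.37 and 4.42), whereas Mycn, a target in granule precursors, and Sfrp1 were higher in the brain (-2.64 and -4.24). In all, 8 of 18 list genes were higher in the cells and 3 in the brain (median 1.31).

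Regional identity genes went in both directions. The midbrain and hindbrain genes En1 and En2, which pattern the cerebellar territory, averaged 16.2 ± 0.0911 and 84.7 ± 3.41 rescaled FPKM in the cells and 9.38 ± 1.7 and 48 ± 5.75 in the brains, without a call. Hoxa3, a gene of the caudal hindbrain, was at 49, 46.7 and 45.2 rescaled FPKM in the cells and at 2.87, 2.56 and 2.65 in the brains (log2 difference 3.70 ± 0.05). Hoxb2, Hoxb3, Otx2 and Pax2 were listed at 0 in all 3 cell libraries and higher in the brain. Of 12 forebrain genes with a row in both tables, 7 passed the filter. Among these 7, 3 were higher in the cells, including Emx2 and Lhx2, and 2 were higher in the brain, Neurod6 and Six3. Genes low in both groups are left out by the filter, which raises the share of calls. Without the filter the calls were 3 and 2 of 12. With the median of ratios as scaling 2 were higher in the cells and 2 in the brain, and with FPKM as deposited 1 and 0. Emx2 was at 37, 36.3 and 34.4 rescaled FPKM in the cells and at 0.879, 1.67 and 0.937 in the brains, so it passed the filter through the cells.

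The brain libraries are labelled whole brain, and their regional genes bear on that label. The cortical factor genes Tbr1 and Emx1 were at 0.623, 3.13 and 0.526 and at 0.646, 3.06 and 0.555 rescaled FPKM in the brains, with replicate 2 the highest. In the same libraries the cerebellar genes Cbln1 and Calb1 were at 603, 488 and 587 and at 313, 247 and 267 rescaled FPKM. The forebrain genes of the list summed to 15.7 to 41.8 rescaled FPKM per brain library. Transcripts of these cortical factors were therefore low in these libraries, and which regions the tissue held was not tested.

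Feedback genes downstream of receptor tyrosine kinases were high in the cells at 24 h. Of 14 MAPK feedback genes, which the RAS-ERK pathway induces and many of which then limit it, 6 were higher in the cells and 1 in the brain (median log2 difference 1.62). Etv5, an ETS factor gene, was at 701, 690.2 and 689 rescaled FPKM in the cells and at 32.2, 38.2 and 34.3 in the brains (4.28 ± 0.07). Dusp6, which encodes an ERK phosphatase, was at 300.2, 301 and 290.3 rescaled FPKM against 22.9, 20.4 and 23.4 (3.68 ± 0.06). Both genes had no overlap between the groups. Spry1, Spry2, Spry4 and Etv4 were also higher in the cells, with log2 differences of 3.61, 3.11, 3.78 and 3.34. The exception was the phosphatase gene Dusp5, higher in the brain, at 18.4 ± 0.252 against 90.6 ± 4.33 rescaled FPKM. With the cells at 144 h, 915 of all genes were called higher in the cells and 1980 higher in the brain. The list median was then -0.37, with 0 members higher in the cells and 4 higher in the brain.

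Of the growth factor receptor genes, Egfr was at 92.5, 94.2 and 95.2 rescaled FPKM in the cells and at 3.82, 5.76 and 4.58 in the brains (log2 difference 4.07 ± 0.14), and Erbb2 was at 52, 53.2 and 53.1 against 3.01, 3.3 and 4.18 (3.59 ± 0.11). Erbb3, whose product pairs with that of Erbb2, was at 0.0485, 0.0311 and 0 rescaled FPKM in the cells and at 13.2, 13.5 and 10.8 in the brains and was higher in the brain, as were Fgfr3, Ntrk2, Pdgfrb and Kit. Fgfr1 averaged 172 ± 6.75 and 48.9 ± 3.58 (1.80 ± 0.07) and was not called. The list median was -1.07 at 24 h and 0.87 with the cells at 144 h.

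Of 13 Notch pathway genes, 6 were higher in the cells and 1 in the brain (median log2 difference 1.81). The receptor gene Notch1 averaged 124 ± 3.05 rescaled FPKM in the cells and 8.3 ± 1.07 in the brains, and Notch2, the ligand genes Dll1, Dll3 and Jag1 and the target Hes1 were also higher in the cells. The ligand gene Jag2 went the other way, at 0.592 ± 0.0775 and 18.6 ± 0.294 rescaled FPKM.

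The MYC genes differed in opposite directions. Myc was at 326, 306 and 282 rescaled FPKM in the cells and at 5.2, 7.12 and 5.21 in the brains (52.1-fold, log2 difference 5.49 ± 0.14). Mycn was at 0.767, 0.822 and 0.982 rescaled FPKM in the cells and at 8.01, 15.9 and 9.18 in the brains (-2.64 ± 0.28). Each gene separated the groups without overlap. Mycl averaged 11.3 ± 0.495 and 21.9 ± 2.67 and was not called (-0.88 ± 0.10). Mxd3, which encodes a MAX-binding repressor of dividing progenitors, was higher in the cells (2.69 ± 0.17). The median over 10 genes was -0.37, and 0.66 with the cells at 144 h.

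**Figure D4:**
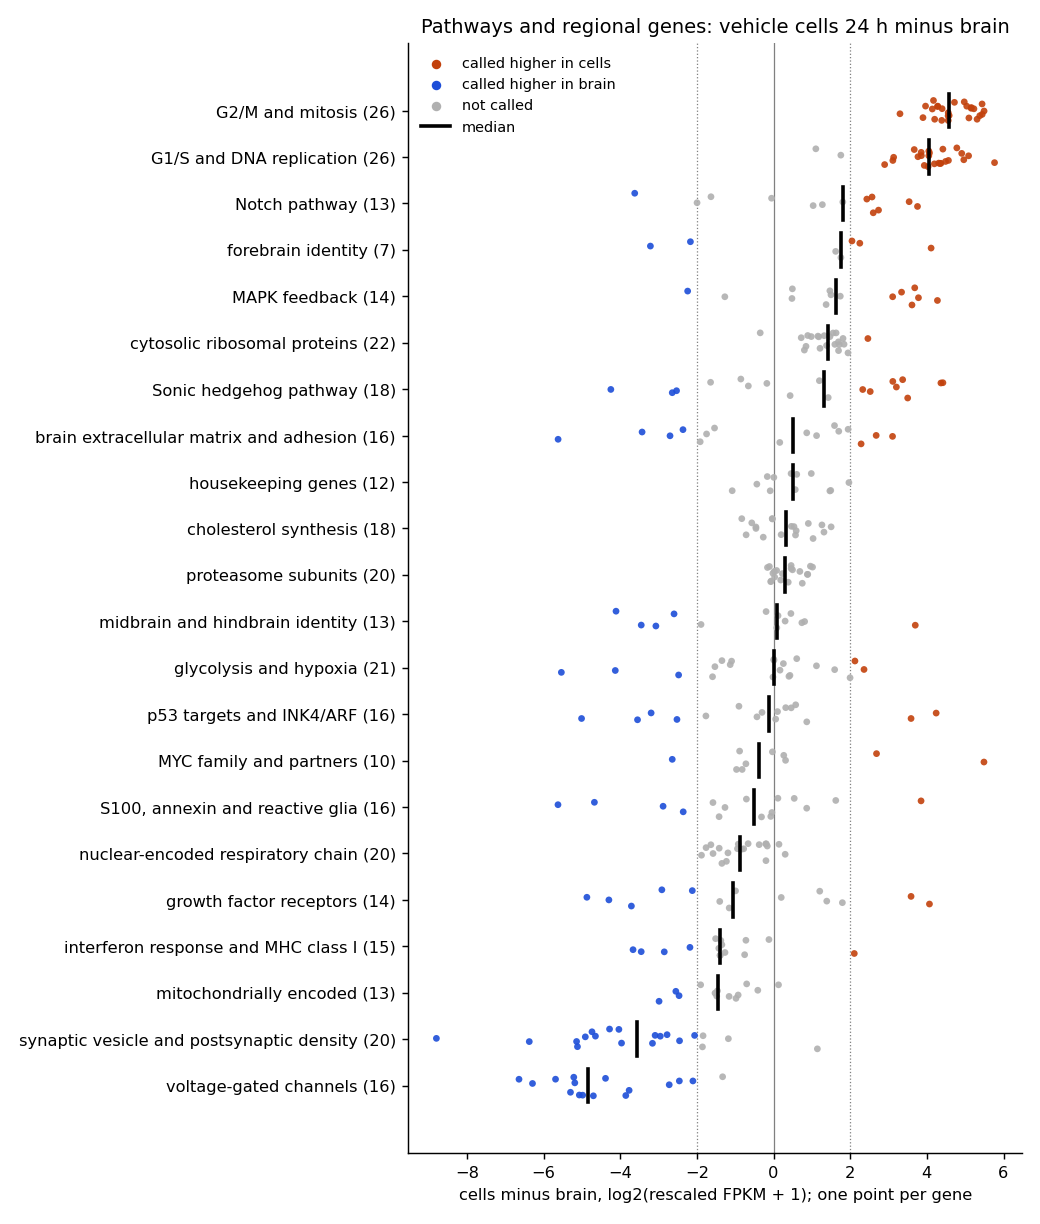
Log2 difference of each gene between vehicle cells at 24 h and vehicle brain, by pathway, regional or reference list, with the list medians and the limits for a call. Medians run from 4.57 for mitosis to -4.84 for voltage-gated channels, and no cholesterol synthesis, proteasome or housekeeping gene passes a limit.

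None of 18 cholesterol synthesis genes, 20 proteasome subunit genes or 20 nuclear-encoded respiratory chain genes was called, with median log2 differences of 0.33, 0.31 and -0.88. Among glycolytic genes, Ldha, which encodes a subunit of lactate dehydrogenase, was higher in the cells, at 928, 1039 and 1154 rescaled FPKM against 273, 239 and 204, as was the hexokinase gene Hk2 (2.36 ± 0.08). Pfkp, Ndrg1 and Car9 were higher in the brain. The median of the glycolysis and hypoxia list was 0.01 and lay between -0.07 and -0.01 under 4 other scalings, so no direction is given for it. Eno2, the neuronal enolase gene, averaged 1.52 ± 0.507 rescaled FPKM in the cells and 918 ± 69.9 in the brains, while Eno1 averaged 1506 ± 56 and 498 ± 8.76 (1.59 ± 0.03, not called).

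Cytosolic ribosomal protein genes had a median log2 difference of 1.43, with 1 of 22 called, Rps18 (2.46 ± 0.12). Rpl8 was at 4568, 4554 and 4417 rescaled FPKM in the cells and at 1248, 1335 and 1554 in the brains (1.72 ± 0.09), and Rps2 was the 1 member below 0 (-0.35 ± 0.07). Such genes have many near-identical processed copies in the genome, so their values are uncertain where reads were divided among copies. Mitochondrially encoded genes made up 2.06% to 2.15% of the summed rescaled FPKM of the cells and 4.22% to 5.2% of that of the brains. Their median log2 difference was -1.46, and mt-Nd6, mt-Co2 and mt-Co3 were higher in the brain. The level of mt-Co2 was 2.26 to 3.41 rescaled FPKM in the cells, beside 7616 to 8144 for mt-Co1, and near-identical nuclear copies make such values uncertain.

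Of 15 interferon response and MHC class I genes, 4 were higher in the brain and 1 in the cells (median log2 difference -1.39). Over all genes 17.9% were higher in the brain and 8.52% in the cells, so no direction is read from these counts. H2-D1, a class I heavy chain gene, was at 15.9, 19.3 and 15.3 rescaled FPKM in the cells and at 198, 184 and 198 in the brains (-3.45 ± 0.10). Its light chain gene B2m overlapped between the groups, at 179, 189 and 203 against 214, 209.7 and 197 rescaled FPKM. Ifit3, Isg15 and Irf7 were the others higher in the brain, and the membrane protein gene Ifitm3 was higher in the cells, at 304 ± 9.65 against 70.4 ± 10.7. With the cells at 144 h, 915 of all genes were called higher in the cells and 1980 higher in the brain. The list median was then 0.74, with 4 list genes higher in the cells and 1 in the brain. Microglia, whose markers were near 0 in the cells, also make several of these transcripts, and their part in the brain levels was not tested.

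Among adhesion and matrix genes, the integrin gene Itgb1 was at 757, 779.6 and 832 rescaled FPKM in the cells and at 101, 88 and 84 in the brains (log2 difference 3.10 ± 0.09). Lgals1 and the proteoglycan gene Ncan were also higher in the cells (2.68 ± 0.10 and 2.29 ± 0.12), and Hapln2, Hapln1, Tnr and Lgals3 in the brain. In the list of S100, annexin and reactive glia genes, Cd44 was higher in the cells, and Serpina3n, S100a6, Mt2 and Mt1 were higher in the brain.

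The Y-linked genes separated the brain libraries. Ddx3y was at 52.5, 55 and 61.4 rescaled FPKM in the cells and at 0.0336, 0.103 and 39.8 in the brains, and Eif2s3y was at 55.8, 61.5 and 62.2 against 0.0846, 0.52 and 68.1. All 3 cell libraries and brain replicate 3 thus carried Y-linked transcripts, and brain replicates 1 and 2 were near 0. The log2 differences of the 3 called among 4 Y-linked genes include those 2 brain libraries.

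Housekeeping genes show what the common scale does. None of 12 was called, and the median log2 difference was 0.51. Gapdh overlapped between the groups, at 1635, 1775 and 1741 rescaled FPKM in the cells and 1775, 1695 and 1651 in the brains. Actb was at 5896, 5743 and 5653 against 1616, 2216 and 2513 (1.47 ± 0.19). With the cells at 144 h in place of 24 h the median of the 12 was -0.41.

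A set of 6797 protein-coding genes had a row in the cell table alone and could not be compared. Of these, 5154 were listed at 0 in all 3 cell libraries, 62 had a mean of at least 1 FPKM and 6 had a mean of at least 10. The highest was Fndc3c1, at 126.1, 125.1 and 134.6 FPKM as deposited, followed by Cdkn2a. The chromosome segregation genes Ercc6l and Knl1 averaged 12.7 and 11.3 FPKM, and Depdc1a, Raet1d, Rbm46 and Ticrr completed the 8 highest.

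Genes higher in the cells were not spread evenly along the chromosomes. On chromosome 6, 15.0% of the genes tested were called higher in the cells, and on the X chromosome 15.5%, against 8.52% over all chromosomes. Windows of 10 Mb with at least 20 genes, of which there were 222, were described after the values had been seen, so they carry no test. The window with the highest median log2 difference was chr6:140000001-150000000 in the coordinates of mm10, at the end of that chromosome. Its 49 genes had a median of 2.43, where the median over all windows was 0.01 and the lowest was -1.23. In it 30 genes (61.2%) were called higher in the cells and 6 higher in the brain. The median was 2.38, 2.45 and 2.42 with each cell library alone. These libraries picked the window, so their agreement describes their spread and is no support for it.

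Within the window, the nuclear import gene Ipo8 was at 557, 556 and 565 rescaled FPKM in the cells and at 21.2, 20.5 and 18.6 in the brains (log2 difference 4.73 ± 0.05). The vesicle transport gene Golt1b was at 579, 572 and 586 rescaled FPKM against 37.4, 31.1 and 28.8 (4.13 ± 0.11). Neither gene overlapped between the groups. Sinhcaf and Resf1, named above for their size, lie in the same window, as do Recql (4.13), Ints13 (4.16), Sspn (4.78), Etfbkmt (4.51), Bicd1 (4.07) and Sox5 (3.90). All of these were called higher in the cells. The 6 genes higher in the brain were Slco1c1, Slco1a4, Kcnj8, Pthlh, Far2 and Tmtc1, each with under 1 rescaled FPKM in every cell library. The next windows were chrX:140000001-150000000, chrX:150000001-160000000 and chrX:160000001-170000000, with medians of 1.77, 1.36 and 1.25 over 22, 44 and 35 genes. DNA copy number was not analysed here.

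**Figure D5:**
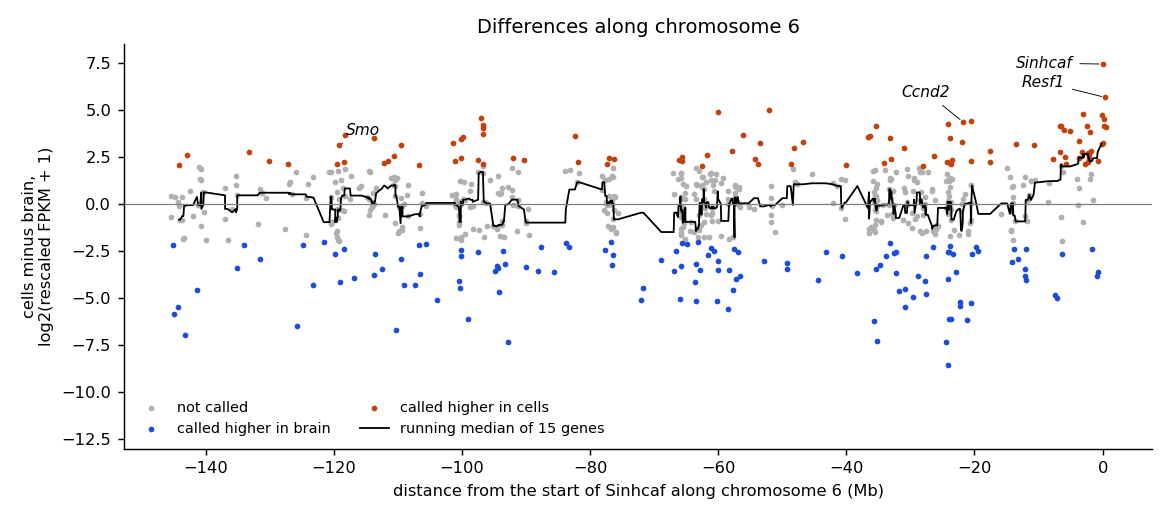
Log2 difference of each gene of chromosome 6 that passed the filter against its distance from the start of Sinhcaf in Mb, coloured by call, with a running median of genes along the chromosome. Genes near Sinhcaf and Resf1, at the right end, lie mostly above 0.

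Culture time moved many of these levels. Vehicle cells at 144 h were compared with vehicle cells at 24 h within the cell table, where the libraries share 1 normalization (limma on log2(FPKM + 1), Benjamini-Hochberg adjusted p under 0.05). Of 12510 genes tested, 4268 were higher at 144 h (34.1%) and 4054 lower (32.4%), with a median log2 change of 0.01. The cells are a single line and its replicates may be technical. These p-values may therefore leave out the spread between separate cultures. Both this comparison and that with the brain use the 24 h vehicle libraries, so their values are set side by side and not correlated. Log2 changes over culture time are on FPKM as deposited, whereas the levels printed beside them are rescaled and larger. For low genes the changes are therefore smaller than they would be on the rescaled scale.

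Cell cycle genes fell as a group. All 26 genes of each cell cycle list were lower at 144 h, with median log2 changes of -2.76 for replication and -3.20 for mitosis. Mki67 was at 13.2, 13.4 and 15.3 rescaled FPKM at 144 h, against 197 to 214 at 24 h and 3.45 to 9.59 in the brains (log2 change -3.70, adjusted p = 1.6e-08 by limma). Against the brains, 3 genes of each list were still called higher in the cells at 144 h. Over all genes the counts at 144 h were 915 higher in the cells and 1980 higher in the brain. No direction is read from 3 calls per list. Myc was at 96.1, 97.2 and 88.3 rescaled FPKM at 144 h (-1.76, adjusted p = 3.2e-08), still above the brains, and Papln, the second largest difference at 24 h, was at 9.26, 9.73 and 9.04.

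MAPK feedback genes fell in 12 of 14 cases (median log2 change -2.02). Dusp6 was at 4.16, 3.86 and 3.86 rescaled FPKM at 144 h, below the 20.4 to 23.4 of the brains (-5.46, adjusted p = 5.6e-13 by limma). Spry4 averaged 1.56 ± 0.292 rescaled FPKM at 144 h, against 173 ± 4.01 at 24 h (-5.27, adjusted p = 1.2e-11). Egr1, an immediate early gene, was the 1 member that rose (1.14, adjusted p = 6.1e-07).

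The SHH targets Gli1 and Ptch1 rose. Gli1 averaged 67.7 ± 3.25 rescaled FPKM at 144 h against 7.62 ± 0.423 at 24 h and 12.9 ± 3.67 in the brains (log2 change 2.63, adjusted p = 1.2e-09 by limma). Ptch1 averaged 83.9 ± 3.65 against 11.7 ± 0.883 and 21.9 ± 2.1 (2.46, adjusted p = 2.1e-05). The 144 h libraries were thus above the brains where the 24 h libraries were below. Hhip and Mycn also rose (1.32 and 1.56), while Smo did not pass the test (-0.16, adjusted p = 0.58). Over the list, 6 of 16 genes tested were higher and 6 lower, beside 34.1% and 32.4% over all genes. The 6 lower genes were Ccnd1, Ccnd2, Foxm1, Cdon, Gas1 and Gli3, each called higher in the cells than in the brain at 24 h. Their log2 changes were -2.9, -3.4, -2.7, -2.2, -2.1 and -1.2, so the list did not rise as a whole. Atoh1 was at 0.0427, 0 and 0 rescaled FPKM at 144 h.

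Astrocyte genes rose in 13 of 13 cases tested (median log2 change 1.85). Gfap was at 320.4, 329.5 and 286 rescaled FPKM at 144 h, against 1.11 to 1.4 at 24 h and 392 to 416 in the brains (6.07, adjusted p = 8.4e-12 by limma), so the 144 h libraries came near the brains. Aqp4, Ntsr2 and Fgfr3 rose by 4.14, 4.67 and 3.94 on the log2 scale. In the oligodendrocyte lineage, Gpr17 averaged 164 ± 10.5 rescaled FPKM at 144 h, beside 123 ± 9.76 in the brains (5.36, adjusted p = 1.7e-11), and Pdgfra averaged 71.3 ± 1.46 (1.57, adjusted p = 0.00011). Olig2 fell to 680.0, 674 and 656 rescaled FPKM, still far above the brains (-0.92, adjusted p = 2e-06), and Sox10 was at 0.717, 0.718 and 0.694. Mbp was at 1.3, 0.968 and 1.1 rescaled FPKM, and Mog was listed at 0.

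Nes fell to 94.2 ± 3.43 rescaled FPKM (log2 change -2.50, adjusted p = 2.4e-10 by limma) while Sox2 rose to 854 ± 10.9 (1.26, adjusted p = 2.8e-08), and the progenitor list as a whole had 9 of 14 genes higher and 3 lower. Of 12 Notch pathway genes tested, 8 were higher and 2 lower at 144 h. Hes5, Dll3 and Notch3 rose by 2.79, 3.22 and 2.67, whereas Hes1 and Jag1 fell (-1.16 and -0.69). Interferon response and MHC class I genes rose in 11 of 12 cases tested (median 1.42), with Ifit3 at 184 ± 29.7 rescaled FPKM against 0.544 ± 0.148 at 24 h. Cdkn1a rose to 16.4 ± 0.446 rescaled FPKM (1.53, adjusted p = 2.8e-07), below the 49 ± 1.27 of the brains. The chromosome 6 window had a median log2 difference from the brain of 2.17 at 144 h, again the highest of the windows, and the second was at 1.52. That value uses the same line and the same brain libraries, so it is not independent of the 24 h value.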

How the data were processed

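RNA was sequenced from 3 vehicle libraries each of PTCP53 304 cells at 24 h, the same cells at 144 h, and brain. Per the labels' protocols, RNA was extracted with RNeasy Mini Plus kits and made into libraries with a SMARTER mRNA-seq kit. The submitters' processing notes name the build mm10, the aligner STAR (2.6.0c), the counter HTSeq (0.6.1p2), the trimmer Trim Galore (0.5.0) and edgeR (3.28.1, under R 3.6), without their settings. The deposited values are FPKM per gene, which the authors normalized separately in the cell table and the brain table.

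Tables were joined on the gene identifier, kept to protein-coding genes and rescaled to a common sum of 1000000. Differences used log2(rescaled FPKM + 1), with a filter of at least 1 in at least 3 libraries and a limit of 2 for a call. No test was run across the tables. Within the cell table, limma 3.58.1 (R 4.3.3, trended variance, all 12 cell libraries) was fitted to log2(FPKM + 1) after leaving out genes under 1 FPKM in all but 2 or fewer of these libraries, and it was tested on simulated data. Reads per library were implied from the steps of values worth up to 20 reads, of which 90.2% to 97.6% came out whole within 0.1 reads in the vehicle libraries used at 24 h and in brain. Joins and differences were computed with Python 3.11.15 and pandas 2.3.3.

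The rule for named genes took 10 genes of the genotype, pathway and target (Trp53, Ptch1, Gli1, Olig2, Olig1, Sox10, Mki67, Cdkn1a, Cdkn2a, Atoh1), the 12 largest differences in each direction among called genes whose higher group averaged at least 10 rescaled FPKM, leaving out unnamed gene models, up to 6 members of each of 39 lists by their level, list members called against most of their list, and the 8 highest genes of the cell table alone. Other list members and the genes of the chromosome 6 window were chosen after their values were seen. The comparison, its members and the lists were chosen with earlier results of these data known. Brain groups follow the treatment label, since titles of the CT-179 brain libraries also contain the word vehicle. Alternatives changed the scaling, pseudocount, filter, limit and libraries. Some genes named by this rule are not reported here.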

Additional observations from a re-analysis of the deposited data

How the results depend on the processing

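With a limit of log2 1 in place of 2, 3401 genes were called higher in the cells and 4467 higher in the brain, and with a limit of 3 the counts were 421 and 1498. Every other alternative tried kept both counts within 1.5 times 1184 and 2492. With the median of ratios they were 1102 and 2576, with FPKM as deposited 910 and 1787, and with the cells at 144 h 915 and 1980. Similar counts did not mean the same genes: at 144 h 459 of the 1184 and 1829 of the 2492 calls were kept, and 21 calls lay on the other side. With FPKM as deposited the counts higher in the brain fell from 3 to 1 in the SHH list, from 4 to 2 in the interferon list and from 4 to 2 in the hindbrain list, Mycn was not called, and 1 in place of 3 Y-linked genes was called. Leaving out each library in turn, among genes that passed with all 6, gave 1165 to 1201 and 2481 to 2510. For culture time, leaving out each vehicle library gave 3810 to 3914 genes higher and 3635 to 3670 lower, whereas the 6 vehicle libraries alone gave 5387 and 5276, and leaving CT-179 replicate 2 at 144 h out of the fit gave 5513 and 5409. The median log2 difference of all genes moved from -0.05 to 0.09 with a common sum over genes of every type and to 0.14 with the cells at 144 h. Replicate numbers did not pair the cell libraries (correlations of deviations between same-numbered libraries of 0.03, -0.01 and 0.00), and with a replicate block 4211 genes were higher and 4004 lower at 144 h, against 4268 and 4054. Depth was lowest in brain replicate 2, which limits genes near the filter most there.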
